A study of Mus musculus with 9 samples.

Results

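Heat shock proteins and their chaperone partners were followed on 9 expression arrays of mouse lung tissue. The set held every probe whose gene symbol on the array's annotation began with Hsp, Dnaj, or Bag, Cct or Hsf and a digit, without the heparan sulfate proteoglycan gene Hspg2. It came to 66 of the 8841 genes named on the array, measured by 68 of its 10012 probes, since Cct4 and Dnajc1 had 2 probes each. By class these were 30 probes of DNAJ genes, 9 of the chaperonin CCT, 8 of HSP70, 6 of small heat shock proteins, 4 of BAG, 3 of HSP110, 2 of HSP90, 2 of HSP60 and HSP10, 2 of heat shock factors, and 2 of genes named for binding to HSP70 or HSF2. The series on ventilator-induced lung injury compared 3 control samples, 3 samples after injection of E. coli lipopolysaccharide (LPS) of serotype O127:BO at 3 mg/kg, and 3 samples after 3 h of overventilation, which was mechanical ventilation at a pressure of 25 cmH2O. How the controls were handled, the time between the LPS injection and sampling, the strain, sex and age of the mice, and whether each sample came from its own mouse were not stated in the labels. The p-values therefore set each difference against the scatter of these samples within their groups, and some of that scatter may be technical. Whether they speak for the variation between mice is unknown.

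Chaperones bind unfolded protein and help it fold, hold it in solution or pass it on for breakdown. HSP70 proteins cycle on and off their clients with ATP, J-domain proteins (the DNAJ family) deliver the clients and start ATP hydrolysis, and BAG and HSP110 proteins release the nucleotide so that the cycle can run again. HSP90 finishes the folding of kinases and steroid receptors, small heat shock proteins hold unfolded clients without ATP, and the ring-shaped chaperonins HSP60 with its lid HSP10 (mitochondria) and CCT (cytosol) enclose them. In heat, oxidant or mechanical stress the transcription factor HSF1 forms trimers and binds heat shock elements, which are head-to-head and tail-to-tail repeats of the letters GAA, in the promoters of the inducible members. Unfolded protein in the endoplasmic reticulum (ER) instead drives its own chaperones through the ER stress response element.

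The promoters of some members showed these elements, and those printed here belong to the members on which the results below turn. RefSeq windows of assembly GRCm38.p6, from 250 bases before to 50 bases after a start, were at hand for 54 of the 66 genes. Hspa1a is printed for the stress-inducible HSP70 pair, and Hspb1 and Hspe1 because they were high with it on 1 LPS array. Dnajb6 is printed because it carried the full element and had its lowest group mean after overventilation. Hspa5 and Dnajc3 are printed because both carried the ER element. Capitals mark GAANNTTC in Hspa1a and Hspb1, the 3-unit heat shock element GAANNTTCNNGAA (on either strand) in Hspe1 and Dnajb6, and the ER stress response element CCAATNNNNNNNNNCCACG in Hspa5 and Dnajc3. Each stretch is written 5′ to 3′ on the gene's own strand and ends at the last base before the start, except that of Hspe1, which holds the 30 bases around its element.
Hspa1a, chr17:34972157-34972406, minus strand: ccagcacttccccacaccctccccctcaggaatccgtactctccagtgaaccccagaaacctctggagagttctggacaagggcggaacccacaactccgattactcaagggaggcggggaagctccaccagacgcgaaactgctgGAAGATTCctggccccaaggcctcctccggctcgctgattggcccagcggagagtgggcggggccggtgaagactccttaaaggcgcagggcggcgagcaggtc
Hspb1, chr5:135887769-135887918, plus strand: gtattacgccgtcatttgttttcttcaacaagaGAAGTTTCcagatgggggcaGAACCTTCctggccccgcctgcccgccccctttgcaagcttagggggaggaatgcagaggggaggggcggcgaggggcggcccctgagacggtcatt
Hspe1, chr1:55088053-55088082, plus strand: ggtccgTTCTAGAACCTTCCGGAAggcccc
Dnajb6, chr5:29735748-29735897, plus strand: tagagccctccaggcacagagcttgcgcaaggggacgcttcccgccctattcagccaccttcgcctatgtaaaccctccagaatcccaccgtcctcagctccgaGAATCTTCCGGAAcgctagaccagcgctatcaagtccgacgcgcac
Hspa5, chr2:34771940-34772089, plus strand: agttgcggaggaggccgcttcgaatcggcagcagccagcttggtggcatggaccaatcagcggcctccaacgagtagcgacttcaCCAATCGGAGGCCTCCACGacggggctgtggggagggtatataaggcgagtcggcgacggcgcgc
Dnajc3, chr14:118937782-118937931, plus strand: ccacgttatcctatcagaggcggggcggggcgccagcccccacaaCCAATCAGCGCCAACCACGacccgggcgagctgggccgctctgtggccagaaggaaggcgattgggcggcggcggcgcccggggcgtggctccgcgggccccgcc

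Positions are counted back from the start, the base just before it being -1. In Hspa1a the marked letters began at -104. The 250 bases before the start of Hspa1b, the neighbouring copy on chromosome 17, were identical to those of Hspa1a at 247 bases and held the same letters at the same place. In Hspb1 they began at -117 and -97, in Dnajb6 at -46, in Hspa5 at -65 and in Dnajc3 at -105. The Hspe1 stretch held 2 overlapping matches, from -89 and -84, and 1 of the Hspd1 starts lies 216 bases from the Hspe1 start on the other strand, so the same letters stand in front of both genes of the mitochondrial chaperonin.

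Searched on both strands, the 3-unit element was found in 4 of the 54 genes (Dnajb6, Hspd1, Hspe1 and Hsph1), or 7.41%, against 0.662% of all 27025 genes with a window. GAANNTTC alone, which lies within the 3-unit element, was found in 13 genes (24.1%, against 9.04% of all), among them Hspa1a, Hspa1b, Hspb1, Hspb8 and Bag3. TTCNNGAA, which also lies within it, was found in 7 genes (13.0%, against 9.60%), Cct5 and Cct6a among them. The ER element was found in 3 genes, Hspa5, Hsp90b1 and Dnajc3 (5.56%, against 0.137%). A match is a description of these letters and not a measured binding site.

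The deposited values are ratios to the mean of the 3 controls, so a log2 ratio of 0 is the control mean, 1 is a doubling, and no probe's level can be set against another's. Each array also had a floor, a lowest level at which 27.8% to 42.4% of its probes were read. Each probe is set to its own control mean, so the floor's deposited ratio differs from probe to probe. In the 1908 probes at the floor on all 9 arrays, that ratio was highest on overventilation array 3 (2.22). Of the 68 member probes, 14 lay at the floor on all 9 arrays, 10 lay there on some arrays and were not tested, and 44 were tested, 42 of them with no more than 1 array at the floor. The floor held 15 to 20 member probes on the control and LPS arrays, 23 on overventilation arrays 1 and 3, and 17 on overventilation array 2. Markers of lung epithelium (6 probes for type II, 3 for type I and 2 for club cells) were never at the floor on all arrays, and 3 of 9 striated muscle markers (Myh6, Myh7 and Ckm) were. So were 1 of 4 markers of endothelium (Cdh5), 1 of 2 of leukocytes (Cd3e) and 1 of 4 of neutrophils (Mmp9). In tissue samples, fewer cells of a type and less RNA per cell cannot be told apart.

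**Figure D1:**
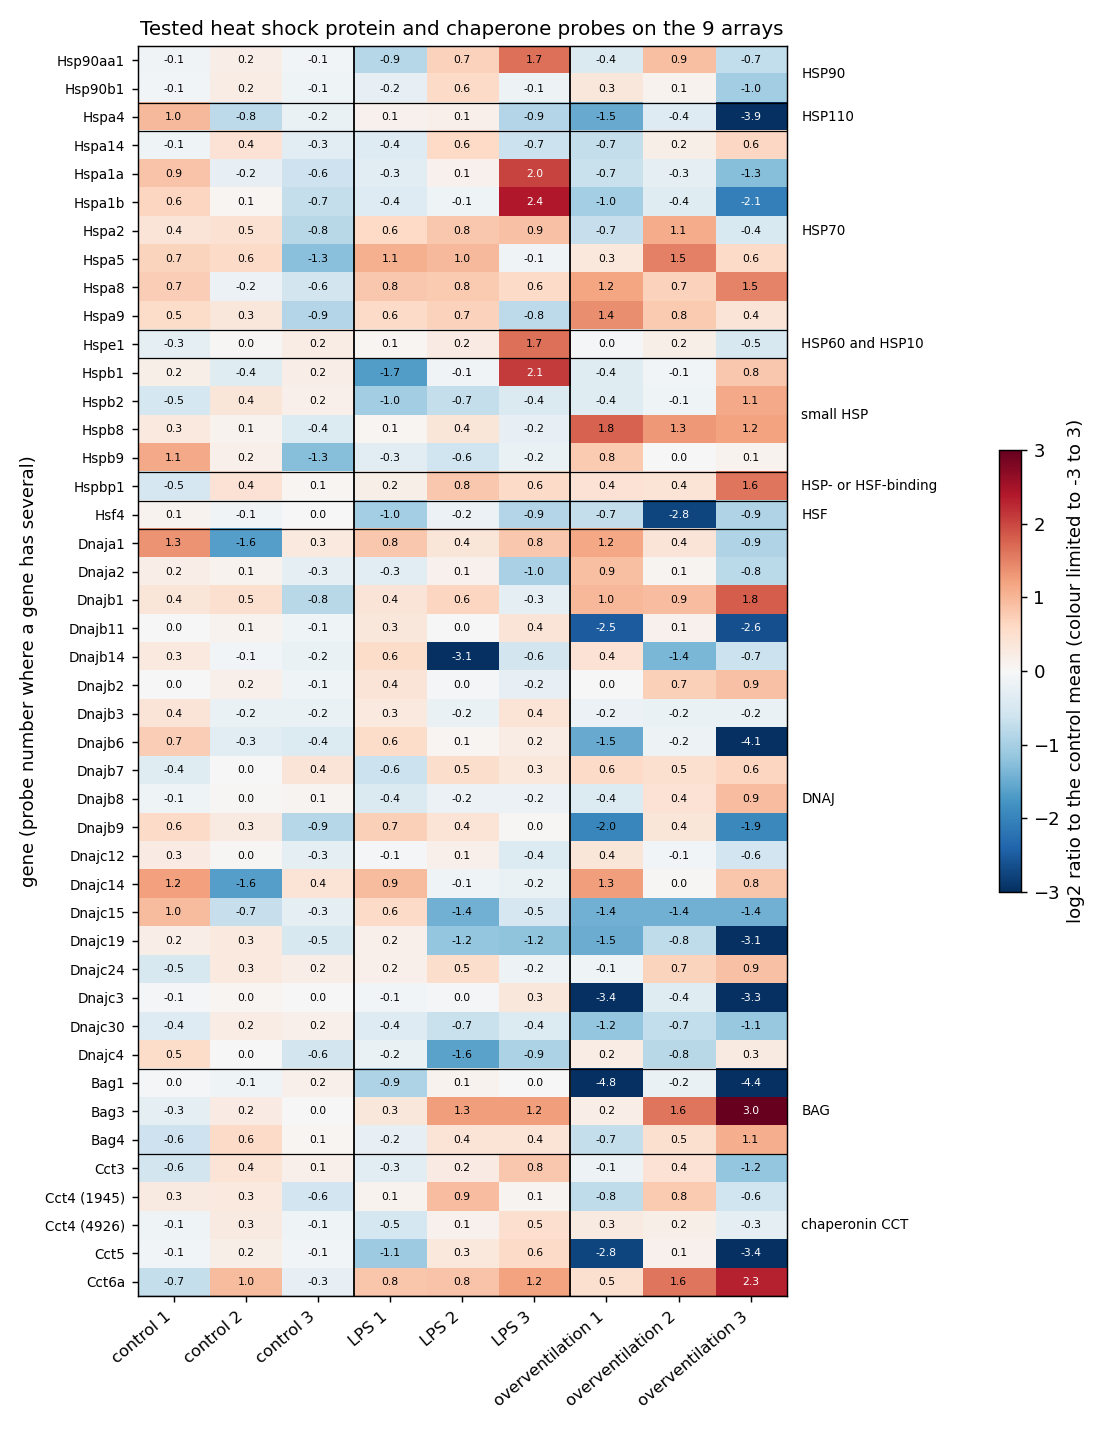
Log2 ratio to the control mean (colour and printed number, colour limited to -3 to 3) of the 44 tested member probes (rows, grouped by class) on the 9 arrays (columns). Red cells stand out on LPS array 3 for Hspa1a, Hspa1b, Hspb1 and Hspe1, and blue cells on overventilation arrays 1 and 3 for Bag1, Dnajc3, Dnajb11 and Cct5, while overventilation array 2 lies near 0 for these.

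No member passed the test after adjustment in any comparison. With limma and a Benjamini-Hochberg adjusted p under 0.05, 0 of 44 members and 0 of 5710 probes (0%) differed between overventilation and control, between LPS and control, or between overventilation and LPS, and 0 (0%) differed by the moderated F test over the 3 groups. The smallest adjusted p of a member was 0.193, for Hspb8 after overventilation. What follows therefore gives values, with the comparison of each with its spread, and the shares of all probes past the same limits. With 3 samples against 3, an exact permutation test could not go below 0.10.

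After overventilation the members lay on both sides of the controls. The median log2 change of the 44 was -0.05, against -0.01 over all tested probes, with 21 members above 0 and 23 below. At an unadjusted limma p under 0.05, 5 members were higher than control (11.4%, against 6.2% of all probes) and 10 were lower (22.7%, against 8.69%). The higher ones were Hspb8, Hspa8, Dnajb1, Cct6a and Bag3. The lower ones were 6 DNAJ genes (Dnajc3, Dnajc30, Dnajc19, Dnajb11, Dnajc15 and Dnajb6), Bag1, Cct5, Hsf4 and Hspa4. These 2 counts depended on single arrays, as did those over all 5710 probes, which were 354 and 496 with every array. Without control array 1 the member counts were 3 and 5 (281 and 372 over all probes). Without control array 3 they were 1 and 7 (193 and 356). Without overventilation array 1 they were 6 and 5 (504 and 335), without overventilation array 2 they were 3 and 9 (316 and 674). Without overventilation array 3 they were 1 and 3 (191 and 292). All 3 overventilation values lay above all controls for 3 members, Hspb8, Dnajb1 and Dnajb7 (9.12% of all probes did so), and below all controls for 6, Bag1, Dnajc3, Dnajc15, Dnajc19, Dnajc30 and Hsf4 (10.5% of all probes). Of the tested lung epithelial markers, 1 of 3 for type I cells (Ager, log2 change 2.27) and 1 of 6 for type II cells (Sftpd, 1.87) were higher after overventilation at the same limit, and 1 of 2 Napsa probes of type II cells was lower (-2.13). Overventilation array 3 was far the highest for Ager (1.19, 1.14 and 4.48) and Sftpd (0.61, 0.89 and 4.115). The first of these Sftpd values lay below control array 2 (0.70). The part of such markers in the counts was not tested.

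**Figure D2:**
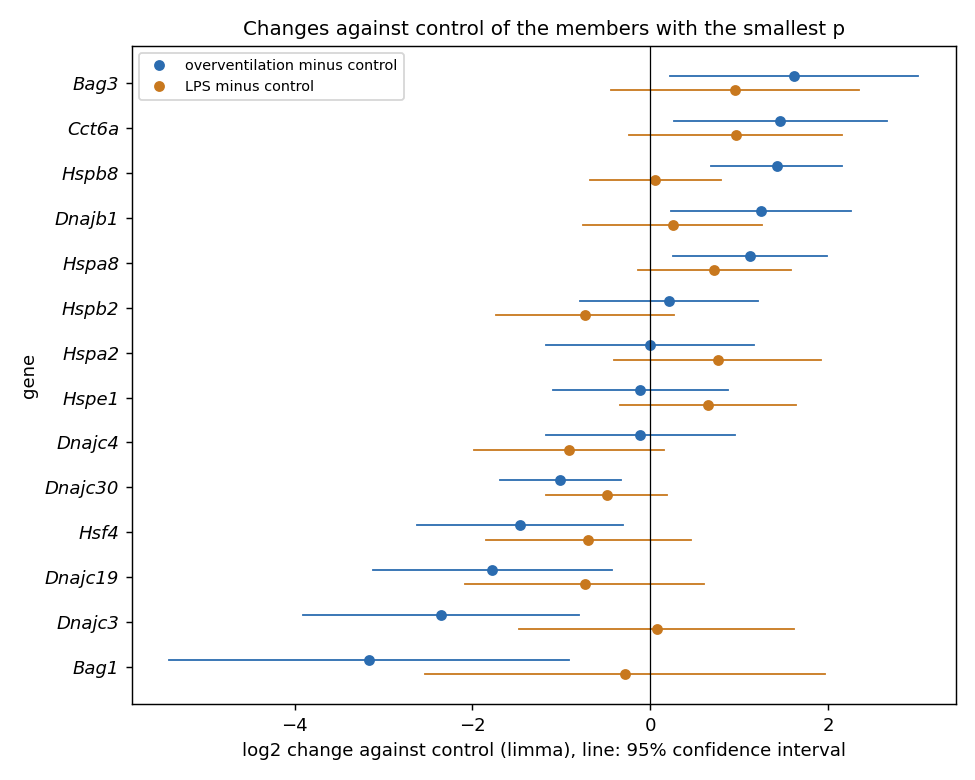
Log2 change against control from limma (points) with its 95% confidence interval (lines) for the members with the smallest p in either comparison, after overventilation (blue) and after LPS (orange). For Hspb8 the overventilation interval runs from 0.69 to 2.16 and the LPS interval lies around 0, whereas for Hspa8 both points lie above 0.

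Hspb8, a small heat shock protein that works with BAG3 and HSP70 to send damaged protein to autophagy, had the smallest p of the members. It read 0.30, 0.11 and -0.40 on the control arrays, 0.06, 0.36 and -0.25 after LPS, and 1.76, 1.30 and 1.21 after overventilation. Every overventilation value was thus above every control and every LPS value. Its mean after overventilation was 1.42 ± 0.29 (SD, n = 3), 2.68-fold over control (log2 SE 0.33, 95% confidence interval 0.69 to 2.16, limma adjusted p = 0.193). Against LPS the log2 difference was 1.37 (2.58-fold, limma adjusted p = 0.494). Over 20 alternative settings its change against control ran from 1.07 to 1.57. HSPB8 is also a muscle protein, and the median of the 4 tested striated muscle markers lay between -1.03 and 0.13 on the overventilation arrays and between -0.13 and 0.23 on the controls. Of the 4, Myl4 read 0.89, 0.77 and 0.83 after overventilation against -0.20, 0.60 and -0.40 on the controls, and Tnnt2 read -2.68, -0.06 and -3.44 against -0.05, -0.40 and 0.46. The part of muscle RNA in the result was not tested.

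Bag3, the co-chaperone that joins HSPB8 to HSP70 and is itself a target of HSF1, read -0.26, 0.24 and 0.023 on the controls and 0.34, 1.26 and 1.25 after LPS. After overventilation it read 0.19, 1.61 and 3.05, so its first overventilation array lay among the controls and its last was the highest of all 9 arrays. The overventilation mean was 1.62 ± 1.43 (SD, n = 3; 3.07-fold, limma adjusted p = 0.270), and its change was 0.90 without overventilation array 3. That array lay more than 1 log2 unit above the 8 others in 254 of the 5710 probes (4.45%), and Bag3 was the 1 member among them. All 3 LPS values of Bag3 were above all controls, with a log2 change of 0.95 (limma adjusted p = 1).

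Dnajb1, the main J-domain partner of inducible HSP70 in the cytosol, read 0.36, 0.48 and -0.84 on the controls, 0.39, 0.64 and -0.28 after LPS and 1.00, 0.92 and 1.82 after overventilation. All overventilation values were above those of both other groups, with a log2 change against control of 1.24 (SE 0.45, 2.37-fold, limma adjusted p = 0.243). Hspa8, the constitutive cytosolic HSP70, read 0.73, -0.18 and -0.55 on the controls, 0.81, 0.78 and 0.57 after LPS and 1.19, 0.69 and 1.48 after overventilation. Both treated groups were tight and high, but control array 1 overlapped them. The log2 change was 1.12 after overventilation (SE 0.39, 2.18-fold, limma adjusted p = 0.230) and 0.72 after LPS (limma adjusted p = 1). Control array 3 gave the lowest control value for both genes, and without it the overventilation changes were 0.82 for Dnajb1 and 0.85 for Hspa8.

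The strictly inducible HSP70 genes gave another picture. Hspa1a, which is nearly silent in unstressed cells, read 0.86, -0.24 and -0.62 on the controls, -0.35, 0.12 and 2.02 after LPS, and -0.67, -0.30 and -1.28 after overventilation. Its neighbouring copy Hspa1b read 0.65, 0.064 and -0.71 on the controls, -0.39, -0.14 and 2.39 after LPS, and -1.03, -0.36 and -2.06 after overventilation. Both were thus high on LPS array 3 alone and lowest on overventilation array 3. Since the 2 genes are near-identical copies, their probes can share signal and do not count as independent. After overventilation the log2 changes were -0.75 for Hspa1a and -1.15 for Hspa1b (limma adjusted p = 0.634 and 0.512), and the difference of Hspa1b from LPS was -1.77 (limma adjusted p = 0.509), which became -0.88 without LPS array 3. The change of Hspa1a after overventilation was -0.32 without control array 1, and that of Hspa1b was -0.70 without overventilation array 3.

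**Figure D3:**
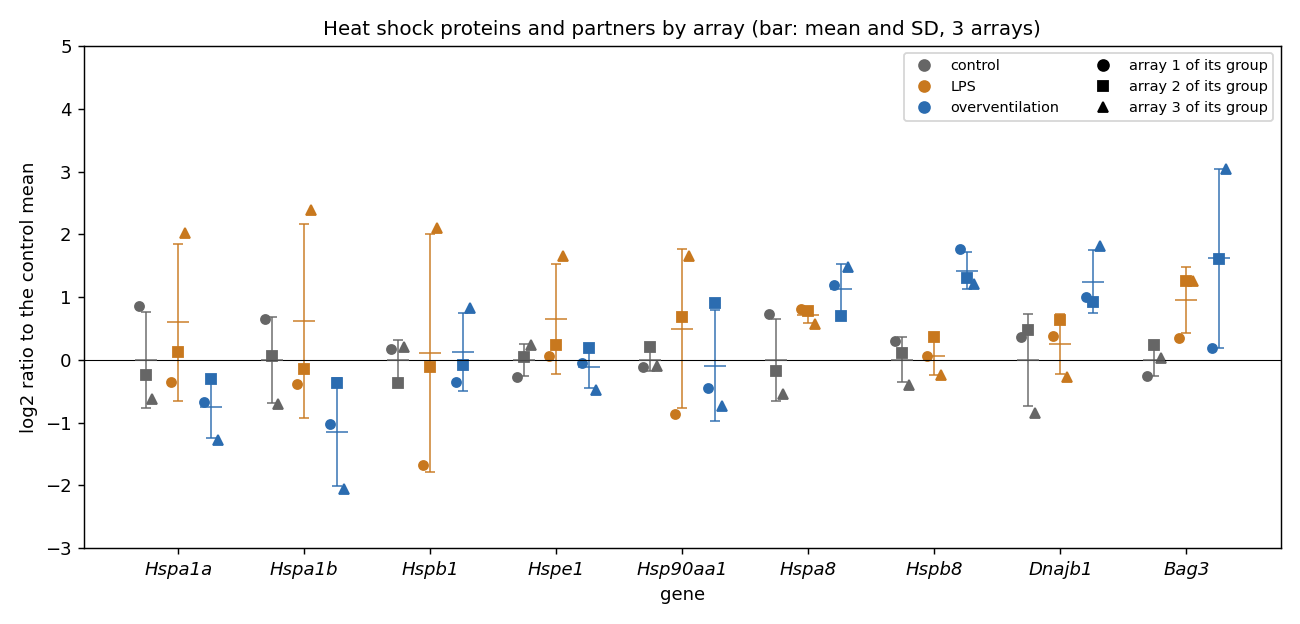
Log2 ratio to the control mean of 9 members on each array, with the mean and SD of the 3 arrays of a group as a bar. LPS array 3 (orange triangle) is far above the other LPS arrays for Hspa1a, Hspa1b, Hspb1 and Hspe1, whereas the overventilation values (blue) lie above all controls for Hspb8 and Dnajb1.

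LPS array 3 was also high for some other inducible chaperones, but not for all. Hspb1, the small heat shock protein HSP25 of the mouse, which caps actin and holds unfolded clients, read 0.17, -0.37 and 0.20 on the controls, -1.68, -0.11 and 2.10 after LPS and -0.36, -0.085 and 0.82 after overventilation. Hspe1, the HSP10 lid of the mitochondrial chaperonin, read -0.28, 0.043 and 0.23 on the controls, 0.062, 0.24 and 1.65 after LPS and -0.046, 0.19 and -0.48 after overventilation. Hsp90aa1, the inducible cytosolic HSP90, read -0.11, 0.20 and -0.093 on the controls, -0.86, 0.68 and 1.66 after LPS and -0.44, 0.91 and -0.74 after overventilation. Hspd1, the HSP60 partner of Hspe1, was not tested because fewer than 3 arrays lay above the highest floor, but its deposited log2 ratio was 1.09 on LPS array 3 against 0.38 or less on the other LPS arrays and the controls. On overventilation array 3 it was 3.84, the highest of all. Dnajb1 (0.39, 0.64 and -0.28 after LPS) and Dnajb9 (0.71, 0.41 and 0.030), by contrast, had their lowest LPS value on LPS array 3. Bag3 read 1.25 there and 1.26 on LPS array 2.

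LPS array 3 lay more than 1 log2 unit above all controls and both other LPS arrays in 20 of 5710 probes (0.35%), and 4 of these were members (9.09% of 44): Hspa1a, Hspa1b, Hspb1 and Hspe1. This margin was set after the values had been seen. These 4 promoters, of which those of Hspa1a and Hspa1b are near-identical, carried GAANNTTC, as did 9 other member promoters. Of all genes with a window, 9.04% carried it, and its part in these values was not tested. Within the LPS group the spread was accordingly wide, with an SD of 1.25 for Hspa1a, 1.54 for Hspa1b and 1.90 for Hspb1. Without LPS array 3 the log2 changes after LPS turned from 0.60 to -0.11 for Hspa1a, from 0.62 to -0.27 for Hspa1b and from 0.10 to -0.89 for Hspb1, and that of Hspe1 went from 0.65 to 0.15. Each is therefore the value of 1 array and not of the group.

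After LPS the members lay slightly above the control mean as a set, with no member past the test. The median log2 change was 0.13 against -0.05 over all tested probes, and 29 of 44 were above 0, as were 2550 of all 5710. None had an unadjusted limma p under 0.05 (0.998% of all probes were higher and 1.07% lower at that limit, or 57 and 61). The count was 1 higher without control array 1 (72 higher and 62 lower over all probes) or control array 2 (120 and 41). It was 1 lower without control array 3 (19 and 37 over all probes) and 2 lower without LPS array 1 (150 and 307). All LPS values lay above all controls for Bag3 and Hspa2 (2.24% of all probes), and below for Dnajb8 and Hsf4 (4.08% of all probes). By class, the median was 0.62 over the 7 HSP70 probes, 0.28 over HSP90, 0.25 over CCT, 0.19 over BAG, 0.06 over DNAJ and -0.16 over small heat shock proteins. With single arrays left out, these medians ran from 0.27 (without control array 3) to 0.95 for HSP70, from 0.038 to 0.69 for HSP90, from -0.035 to 0.50 for CCT, from -0.12 to 0.48 for BAG, from -0.13 to 0.06 for DNAJ and from -0.67 to 0.19 for small heat shock proteins. The near-identical Hspa1a and Hspa1b make up 2 of the 7 HSP70 probes. The set's median after LPS was -0.00091 without control array 3, against -0.094 over all tested probes. Markers of fat moved too, with 3 of 3 tested lower after LPS at an unadjusted limma p under 0.05, with log2 changes of -3.32 for Adipoq, -2.98 for Fabp4 and -2.09 for Retn (limma adjusted p = 1 for each). Their median was 0.75, 0.93 and -1.70 on the controls, -2.12, -5.28 and -1.93 after LPS and -0.36, -2.21 and -1.19 after overventilation, and their part in the result was not tested.

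Hspa2, an HSP70 best known from the testis, read 0.38, 0.46 and -0.83 on the controls and 0.60, 0.80 and 0.87 after LPS (log2 change 0.76, limma adjusted p = 1). Control array 3 was its lowest, and without it the change was 0.34. It spread from -0.69 to 1.12 after overventilation. Dnajc4, a little-studied J-domain protein of mitochondria, had the smallest p after LPS, with -0.20, -1.59 and -0.94 against 0.54, 0.010 and -0.55 on the controls (log2 change -0.91, limma adjusted p = 1). LPS array 2 was lowest there, an array that was lowest by more than 1 log2 unit in 6.36% of all tested probes. Hspb2, a small heat shock protein of muscle, read -1.04, -0.72 and -0.44 after LPS against -0.53, 0.37 and 0.16 on the controls (log2 change -0.73, limma adjusted p = 1), and -0.37, -0.14 and 1.14 after overventilation.

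A further group of members was low on overventilation arrays 1 and 3 but not on overventilation array 2. Bag1, which releases clients and nucleotide from HSP70 and links it to the proteasome, read -0.025, -0.14 and 0.16 on the controls, -0.93, 0.10 and -0.023 after LPS, and -4.84, -0.20 and -4.43 after overventilation. Dnajc3 (p58IPK), an ER J-domain protein that restrains the kinase PERK, read -0.067, 0.050 and 0.017 on the controls, -0.090, -0.041 and 0.35 after LPS, and -3.43, -0.37 and -3.27 after overventilation. Arrays 1 and 3 of that group were thus more than 3 log2 units below the control mean for both genes, and array 2 was just below the lowest control. Dnajb11 (ERdj3), the ER partner that hands clients to the HSP70 of that compartment, read -2.50, 0.13 and -2.63 after overventilation against -0.12 to 0.11 on the controls and -0.0097 to 0.39 after LPS. Cct5, a subunit of the cytosolic chaperonin that folds actin and tubulin, read -2.75, 0.13 and -3.40 against -0.083 to 0.17 on the controls and -1.08 to 0.58 after LPS.

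These 4 were the members among the 139 of 5710 probes (2.43%) that lay on both arrays more than 1.5 log2 units below the 7 others. This margin, too, was set with the values known. The same pattern was seen, within a smaller margin, for Dnajb9 (ERdj4), an ER J-domain protein induced by unfolded protein, with -1.96, 0.36 and -1.94 against controls of 0.58, 0.27 and -0.86. Dnajb6, which keeps aggregation-prone protein in solution, read -1.52, -0.16 and -4.07 against 0.74, -0.33 and -0.41 on the controls and 0.56, 0.054 and 0.22 after LPS. Overventilation array 2 was again the one nearest to the controls in both.

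**Figure D4:**
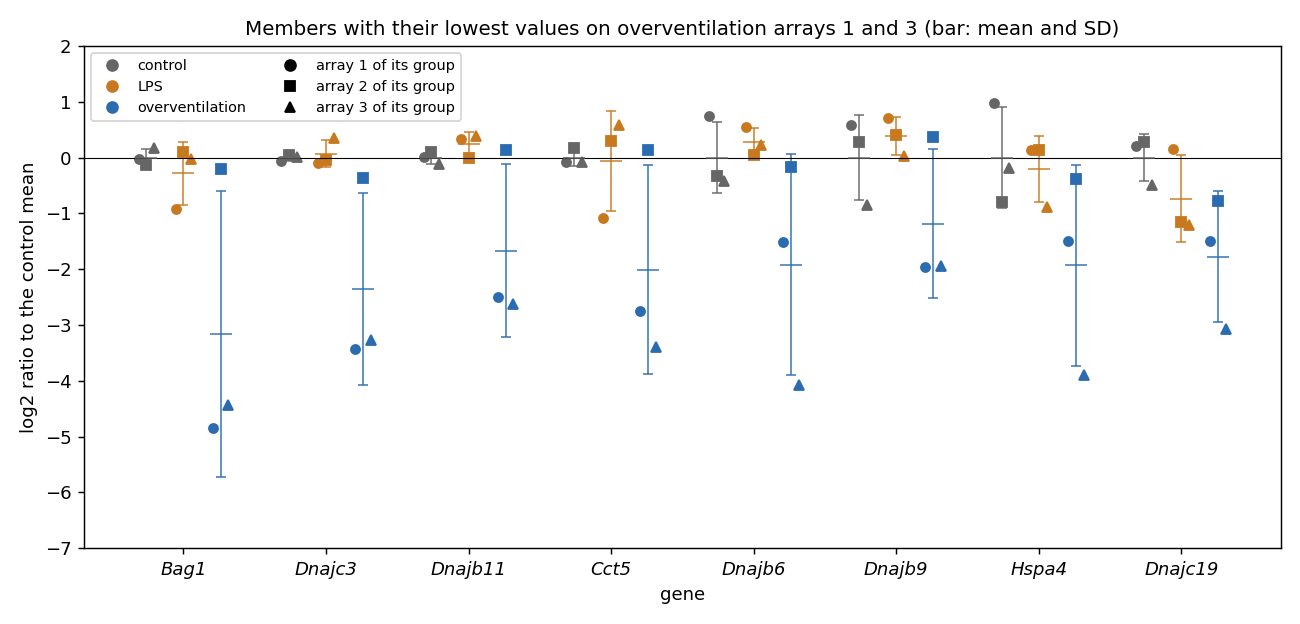
Log2 ratio to the control mean of 8 members on each array, with the mean and SD of the 3 arrays of a group as a bar. On overventilation arrays 1 and 3 (blue circle and triangle) Bag1 and Dnajc3 lie between -4.84 and -3.27, while overventilation array 2 (blue square) lies at -0.20 and -0.37.

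Over all 3 overventilation arrays the log2 changes were -3.16 for Bag1 (SE 1.01, limma adjusted p = 0.214), -2.36 for Dnajc3 (SE 0.69, adjusted p = 0.211), -1.67 for Dnajb11 (adjusted p = 0.266) and -2.01 for Cct5 (adjusted p = 0.282). Without overventilation array 2 these 4 passed limma's test, at -4.64 (adjusted p = 0.0013), -3.35 (0.0013), -2.56 (0.0027) and -3.07 (0.011), together with 286 further probes. That was 4 of 44 members, beside 290 of all 5710 probes. Leaving out the array that differs narrows the group's spread by construction. Against LPS, without that array, the same 4 passed with Dnajb6 (-3.07, limma adjusted p = 0.047) and Dnajb9 (-2.34, limma adjusted p = 0.027). These were 6 of 44 members, beside 226 of all 5710 probes. Arrays 1 and 3 of the group also had more probes at the floor (36.8% and 42.4%) than array 2 (29.1%), and the part of this difference in the result was not tested.

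Of the members that lay below all controls on every overventilation array (10.5% of all probes did so), 3 are J-domain proteins of mitochondria, which were grouped here with their values known. Dnajc4, of the same compartment, read 0.23, -0.84 and 0.27 after overventilation and overlapped its controls (log2 change -0.11). Dnajc19, a part of the import motor of the inner membrane, read -1.49, -0.77 and -3.07 against 0.20, 0.28 and -0.48 on the controls, and 0.16, -1.16 and -1.21 after LPS (log2 change after overventilation -1.78, limma adjusted p = 0.228). Dnajc30, a mitochondrial J-domain protein linked to ATP synthase, read -1.16, -0.74 and -1.13 against -0.39, 0.22 and 0.16 on the controls, and -0.38, -0.67 and -0.42 after LPS. Its mean was -1.01 ± 0.24 (SD, n = 3; 2.02-fold lower, limma adjusted p = 0.213). Dnajc15, also of the import motor, lay at the common floor on all 3 overventilation arrays and was at least 2.72-fold below the control mean (limma adjusted p = 0.267). It read 0.96, -0.70 and -0.26 on the controls and 0.58, -1.44 and -0.51 after LPS, where array 2 lay at the same floor. Hspa9 (mortalin), the HSP70 that such proteins serve, read 0.54, 0.33 and -0.87 on the controls, 0.58, 0.70 and -0.79 after LPS, and 1.39, 0.78 and 0.39 after overventilation (log2 change 0.85, limma adjusted p = 0.487, and 0.42 without control array 3).

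In the ER, Hspa5 (BiP), the central HSP70 of the unfolded protein response, read 0.68, 0.58 and -1.26 on the controls, 1.06, 0.96 and -0.11 after LPS and 0.31, 1.51 and 0.57 after overventilation. Control array 3 was the lowest of all, and the log2 changes of 0.80 after overventilation and 0.64 after LPS were 0.17 and 0.0064 without it. Hsp90b1 (GRP94), the HSP90 of the ER, read -0.079, 0.21 and -0.13 on the controls, -0.24, 0.57 and -0.15 after LPS and 0.34, 0.10 and -1.04 after overventilation. Hspa5, Hsp90b1 and Dnajc3 all carried the ER element. In that order they read 0.31, 0.34 and -3.43 on overventilation array 1 and 1.51, 0.10 and -0.37 on overventilation array 2. On overventilation array 3 they read 0.57, -1.04 and -3.27. The part of the element in these values was not tested. Neither Hspa5 nor Hsp90b1 differed from control past the spread (limma adjusted p = 0.574 and 0.873 after overventilation, and 1 for both after LPS).

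The subunits of CCT, which are built into the same rings, gave unlike values. Cct6a read -0.71, 0.96 and -0.25 on the controls, 0.84, 0.84 and 1.20 after LPS and 0.48, 1.61 and 2.30 after overventilation, overlapping the controls through control array 2 (log2 changes 1.46 after overventilation, limma adjusted p = 0.246, and 0.96 after LPS, adjusted p = 1). Cct3 read -0.56, 0.42 and 0.14, then -0.31, 0.23 and 0.82 after LPS and -0.15, 0.44 and -1.15 after overventilation. The 2 probes of Cct4 gave different values on overventilation array 1, -0.76 and 0.28, and log2 changes after overventilation of -0.19 and 0.06. Over the 5 tested CCT probes the median change after overventilation was -0.19, with Cct6a and Cct5 at its ends, and it ran from -0.65 to 0.15 with single arrays left out. Cct2 and Cct6b lay at the floor on all 9 arrays, Cct8 on 8 and Cct7 on 3.

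Hsf4, a heat shock factor known for its role in the lens, was the 1 tested factor. It read 0.11, -0.10 and -0.0043 on the controls, -1.01, -0.19 and -0.89 after LPS and -0.73, -2.76 and -0.91 after overventilation, below all controls in both groups. The log2 changes were -1.47 (limma adjusted p = 0.234) and -0.70 (limma adjusted p = 1), and the first became -0.82 without overventilation array 2. Hsf2 lay at the floor on all arrays, and no probe carried the symbol Hsf1 or Hsp90ab1. Dnaja1, a J-domain partner of Hspa8, spread over 1.34, -1.64 and 0.30 on the controls, so that its values of 0.35 to 0.82 after LPS and -0.91 to 1.17 after overventilation lay within their range. Hspa4, an HSP110 that recharges HSP70, read -1.50, -0.39 and -3.90 after overventilation against 0.98, -0.79 and -0.19 on the controls (log2 change -1.93, limma adjusted p = 0.301). The other HSP110 genes Hsph1 and Hspa4l, at the floor on 4 and 5 arrays and above the highest floor on fewer than 3, were not tested.

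The 13 tested members not yet described had limma adjusted p between 0.409 and 0.986 after overventilation and of 1 after LPS. Hspbp1, which releases nucleotide from HSP70, was the nearest to the limit, with -0.51, 0.44 and 0.067 on the controls, 0.16, 0.80 and 0.57 after LPS and 0.43, 0.41 and 1.61 after overventilation. Only its last overventilation array lay clearly above the controls. Dnajb7 was tight after overventilation at 0.57, 0.47 and 0.64, just above its controls of -0.37, -0.021 and 0.39 (log2 change 0.56, limma adjusted p = 0.527). Bag4, which silences death receptors by holding HSP70 on them, read -0.72, 0.49 and 1.09 after overventilation, a spread that took in all its controls (-0.63, 0.57 and 0.054). Dnajb14, an ER membrane J-domain protein, was lowest on LPS array 2 (-3.05, against 0.56 and -0.55 on the other LPS arrays). On that array 6.36% of all tested probes were lowest by more than 1 log2 unit. After overventilation Dnajb14 read 0.43, -1.37 and -0.66, against 0.30, -0.090 and -0.21 on the controls. Among the untested DNAJ probes above the floor somewhere, Dnajc10 (ERdj5), an ER reductase, had a deposited log2 ratio of 2.60 on overventilation array 3 and of 0.72 or less elsewhere, with 2 arrays at the floor.

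Set directly against LPS, overventilation gave 1 member higher at an unadjusted limma p under 0.05 (Hspb8, 2.27%, against 3.57% of all probes) and 7 lower (15.9%, against 5.94%). The 7 were Dnajc3, Bag1, Dnajb11, Dnajb6, Dnajb9, Cct5 and Hspa1b. Their log2 differences were -2.43, -2.88, -1.90, -2.19, -1.57, -1.94 and -1.77, with limma adjusted p between 0.494 and 0.509. Without overventilation array 1 the counts were 5 higher and 2 lower (320 and 157 over all 5710 probes). They were 2 and 11 (238 and 587) without overventilation array 2, and 1 and 1 (65 and 116) without overventilation array 3. Without LPS array 1 they were 2 and 8 (255 and 279), and without LPS array 2 they were 2 and 7 (267 and 272). Without control array 3 they were 2 and 6 (160 and 286). With every array, 204 of all probes were higher and 339 lower. All overventilation values lay above all LPS values for Dnajb1, Hspb2, Hspb8 and Hspb9 (5.71% of all probes) and below for Dnajb6, Dnajc3 and Dnajc30 (5.46% of all probes). The controls enter the fit's estimate of spread here too. With the 2 treated groups alone the counts were 2 higher and 5 lower (126 and 254 over all probes).

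Other genes of protein folding were taken from 3 lists. Of 23 cytosolic co-chaperones and partners of HSP70 and HSP90, 15 were on the array and 11 were tested, and after overventilation 0 were higher and 2 lower at an unadjusted limma p under 0.05 (median log2 change -0.32). The 2 were Nudc, a co-chaperone of HSP90 (-3.15, 0.20 and -3.86 on overventilation arrays 1 to 3), and Cryab, a small heat shock protein named as a crystallin (-2.30, -0.08 and -2.38). Tcp1, the first subunit of CCT, showed the same pattern with -2.43, 0.72 and -2.43, at the common floor on arrays 1 and 3. After LPS the list's median was 0.36, with 1 gene higher, Chordc1, an HSP90 partner that read 1.50, 0.52 and 1.56 against 0.81, -0.69 and -0.13 on the controls.

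Of 25 genes of ER folding and the unfolded protein response, 21 were on the array, with 17 probes tested. After overventilation 1 was higher, the stress sensor Ern1 (0.61, 0.75 and 0.80), and 3 were lower, Fkbp2, Ppib and 1 probe of Canx, with a median of 0.02, and after LPS none passed that limit in either direction (median 0.04). Ppib, a folding enzyme of the ER, read -2.57, 0.14 and -1.62 on the overventilation arrays, again with array 2 near the controls. The 2 probes of the ER chaperone Canx disagreed, with -1.99, -0.72 and -1.77 on 1 and 0.31, 0.03 and 0.32 on the other. Of 10 genes of mitochondrial protein quality control, 7 were on the array with 7 probes tested, 1 of which was higher after overventilation (a Tomm70a probe, 1.00, 1.90 and 2.58) and 1 lower (the protease subunit Clpx, -2.62, -0.62 and -1.52), with a median of 0.08, and after LPS none passed that limit (median -0.07). The other Tomm70a probe went the other way, with -0.88, -0.05 and -2.90. No gene of these lists passed the limma test after adjustment.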

How the data were processed

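Lung RNA of 9 mouse samples was measured on expression arrays. The authors deposited 1 table of linear ratios, each to the geometric mean of the 3 control arrays, as tested on the values (the mean control log2 ratio was 0 in every probe, within 2.49e-09). The sources used here do not state the array's maker, dyes, scanner, background correction, normalization or genome build. GEO's platform annotation supplied the gene symbols (8983 of 10012 probes had 1). Ratios were taken to log2. The commonest pattern of values over the arrays was read as the floor. Where 2 or more arrays of a probe were at it, its values were raised to the highest floor (ratio 2.22) and recentred on the controls, and the probe was tested only if above that floor on 3 or more arrays, which left 5710 probes. Probes with no such pair of arrays have an unknown level and were used as deposited. limma 3.58.1 in R 4.3.3 fitted a mean per group (lmFit, contrasts, eBayes, two-sided, Benjamini-Hochberg over all tested probes, threshold 0.05). The number of arrays limits the precision. The fit was tested on simulated data.

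Values are given for the members with a fixed role and for the 8 members with the smallest p in each comparison, and others were named after their values had been seen. The members, classes and lists were chosen with earlier results of these data known. Samples share replicate numbers in the labels. Correlations of same-numbered arrays' deviations were 0.50, 0.25 and 0.20 between LPS and control, which is above 0.1 in every pair, but 0.51, 0.13 and 0.033 between overventilation and control and 0.50, 0.21 and 0.038 between overventilation and LPS, so a pairing rests on the data alone. Alternatives were no common floor, an offset in place of the floor, no filter, a stricter filter, quantile normalization, median centring, array weights, the replicate block, 2 groups only, a lower floor without overventilation array 3, each array left out, and unknown levels set to their lowest possible value, which was added after seeing the data.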

Additional observations from a re-analysis of the deposited data

Results flagged for a closer look

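Dnajb6, the J-domain protein that keeps aggregation-prone protein in solution, lay on opposite sides of the control mean in the treated groups. All 3 LPS values (0.56, 0.054 and 0.22) lay above the control mean and all 3 overventilation values (-1.52, -0.16 and -4.07) below it, on the log2 scale. The controls themselves read 0.74, -0.33 and -0.41, and both treated groups overlapped them. The change after LPS was 0.28, and 0.071 without control array 3. The difference, overventilation minus LPS, was -2.19 and was tested in the limma fit, where it did not pass (adjusted p = 0.494). Over the alternatives this difference ran from -1.12, without overventilation array 3, to -3.07, without overventilation array 2. Groups of 3 arrays are too small for the test of single arrays that stand apart.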

How the results depend on the processing

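The count of 0 members past the adjusted test held in each comparison under every alternative that kept all 9 arrays. With single arrays left out, the members called ran from 0 to 4 for overventilation against control and from 0 to 6 against LPS, and the probes called in all from 0 to 290 and from 0 to 226, the highest each without overventilation array 2. For LPS against control the probes called ran from 0 to 1, and without control array 3 the count was 1 there and 1 for overventilation against control. Setting unknown levels to their lowest possible value gave 1 probe for overventilation against control. It also turned the members' median for overventilation against LPS from 0.02 to -0.38, with 37 members tested, and leaving out single arrays moved that median between -0.28 and 0.022. With the replicate block, 0 members were called in each comparison, and the smallest adjusted p of a member was 0.122 for overventilation against control, 0.826 for LPS against control and 0.303 for overventilation against LPS. Quantile normalization left 3 members higher and 5 lower after overventilation at an unadjusted limma p under 0.05, beside 164 and 237 of all 5710 probes. No filter left 4 and 5 of 68 members, beside 317 and 463 of 10012 probes. After LPS, array weights gave 6 members higher, where no weights gave 0. Over all 5710 probes the weights gave 199 higher and 221 lower, against 57 and 61 without them. For single members, 1639 recomputed changes kept their direction and side of the threshold, 88 that were not past it changed sign, and 10 passed it, all without overventilation array 2.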
